A study of Mus musculus with 8 samples.

Results

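Aquaporins are membrane channels that let water cross a lipid bilayer along an osmotic gradient. The array design carried 14 probes for 9 aquaporin genes (Aqp1, Aqp2, Aqp3, Aqp4, Aqp5, Aqp7, Aqp8, Aqp9 and Aqp11), chosen by gene name out of 41174 noncontrol probes. Aqp4 and Aqp9 had 3 probes each and Aqp7 had 2, and each other gene had 1. All mice were CD-1 females given subcutaneous injections in corn oil on PND1–PND5, with the vehicle alone in controls and with Gen, a soy phytoestrogen, at 50 mg/kg/day in the treated group. Both groups were superovulated and mated when adult, at 6–8 weeks, and oviducts were taken on pregnancy day 2 (48 hr after hCG) once the embryos had been removed. The RNA of each array came from the oviducts of 1 mouse, with 4 control and 4 Gen arrays, so p-values measure the spread between mice. The comparison asked whether exposure in the first days of life left the transcripts of these channels at another level in the adult oviduct.

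The classical members, here Aqp1, Aqp2, Aqp4, Aqp5 and Aqp8, conduct mainly water. Aqp3, Aqp7 and Aqp9 are aquaglyceroporins, which also pass glycerol, and Aqp11 is a divergent member found in membranes inside the cell. In an epithelium such as that of the oviduct, water follows salt moved by pumps and channels into the lumen or out of it.

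Each gene was measured through 60-base probes, and a few of them are shown because they fix what the values below refer to. Positions follow the array design in mouse build mm7, and sequences are written 5′ to 3′. For Aqp5 and Aqp11, which had the lowest unadjusted p-values among the aquaporins detected on every array, the first 30 bases of the probe are given. The Aqp5 position is chr15:99579945-99580003 (plus strand) and the Aqp11 position is chr7:93757914-93757973 (minus strand).
Aqp5: aggagagagatagatggttcgtcgagtgcc
Aqp11: cttcagctttctctgtggaaggtgtcttaa
For Aqp1 (chr6:55311856-55311915, plus strand) the last 30 bases are shown, in which capitals mark AATAAA, the letters of the common polyadenylation signal.
Aqp1: tcttatggtaagaaAATAAAggacaatgac
AATAAA stood in 2 of the 14 aquaporin probes as written and in 4.78% of all 41174 probes, and on the opposite strand in 1 of the 14 and in 4.25%. The Aqp2 probe is shown whole because its position, chr15:99567392-99568368 (plus strand), spans 977 bases, so its letters come from genomic pieces that lie apart.
Aqp2: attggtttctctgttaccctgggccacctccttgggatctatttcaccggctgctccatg
For Aqp9 both probes with the lowest unadjusted p-values of that gene are shown. The first spans 10465 bases (chr9:71146729-71157193, minus strand), and the second, at chr9:71167045-71167104 (minus strand), was the sole probe of the 9 genes that passed the test.
A_51_P168133: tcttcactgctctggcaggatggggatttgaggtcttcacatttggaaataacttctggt
A_52_P80440: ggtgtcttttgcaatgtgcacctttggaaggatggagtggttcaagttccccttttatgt
The Aqp7 probes lie 22 bases apart and share 38 bases with 1 mismatch, G15A, counted from the 5′ end of the 30-base windows below (A_52_P403405 first), where the differing base is in capitals. The first probe lies at chr4:41172673-41172732 and the second at chr4:41172651-41172710, both on the minus strand.
A_52_P403405: tagagcttctctttGaccacaaccgtactg
A_51_P378063: tagagcttctctttAaccacaaccgtactg
Probes of different aquaporins had at most 10 bases in a row in common on either strand, over 84 pairs. The G and C content of the 14 probes was between 30% and 53.3%.

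Values are processed signals, linear intensities of 1 dye (Cy3) that were scaled so that the 75th percentile of log2 signal was equal on all arrays. A probe's signal depends on its sequence, so levels are compared between arrays and not between probes. The groups were compared with limma over 41173 probes, with Benjamini-Hochberg adjustment of the p-values. By the scanner software 25391–28949 probes per control array and 29539–31486 per Gen array were well above background. The control group and the Gen group each filled a slide of its own, and the effect of the slide cannot be told apart from that of treatment. The low end of the scale also differed between the slides, since the lowest scaled signal called well above background was 28.5–65.9 on control arrays and 14.5–20.9 on Gen arrays. An adjusted p is therefore also given for a fit of the 28966 probes detected on the whole of at least 1 group, named here the fit without dim probes. Markers of the oviduct were present on all 8 arrays, with 6 of 6 secretory and 9 of 9 ciliated epithelial markers well above background, and none of them passed the test. The summed signal of markers of ovarian granulosa, cumulus and steroidogenic cells did not overlap between the groups, at 3732–28940 for controls and 32360–141200 for Gen. Of the 7 detected on all arrays 3 passed (Cyp11a1, Hsd3b1 and Inha), where 1.92% of all probes so detected were called higher. None of the 3 passed in the fit without dim probes. Star, Has2, Ptx3 and Tnfaip6, also detected on all arrays, did not pass, with log2 differences of 1.80, 0.02, 0.15 and -0.09. The 3 oocyte and embryo markers detected on all arrays, of 8, had a median log2 difference of 2.41, and none passed. The summed signal of that list was 476–5349 for controls and 5242–34380 for Gen. The part of these cell types in the aquaporin values was not tested.

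Of the 14 aquaporin probes, 8 were well above background on all 8 arrays, and these stood for 7 genes: Aqp1, Aqp2, Aqp3, Aqp4, Aqp5, Aqp8 and Aqp11. None of the 8 had a limma adjusted p under 0.05, against 4.37% of the 24947 probes on the array with the same detection (1.92% higher and 2.44% lower in Gen-treated mice). At an unadjusted limma p under 0.05 there were 2 (Aqp5 and Aqp11), against 15.2%. In no case did the groups lie apart without overlap, which 12.4% of such probes did. The 8 probes had a median log2 difference, Gen minus control, of 0.15, with 5 higher and 3 lower in Gen-treated mice, and the median over all probes with the same detection was -0.01. The third Aqp4 probe was well above background on 7 arrays. The 5 probes of Aqp7 and Aqp9 were well above background on 1 array or on none. No aquaporin spot was saturated or marked as an outlier.

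**Figure D1:**
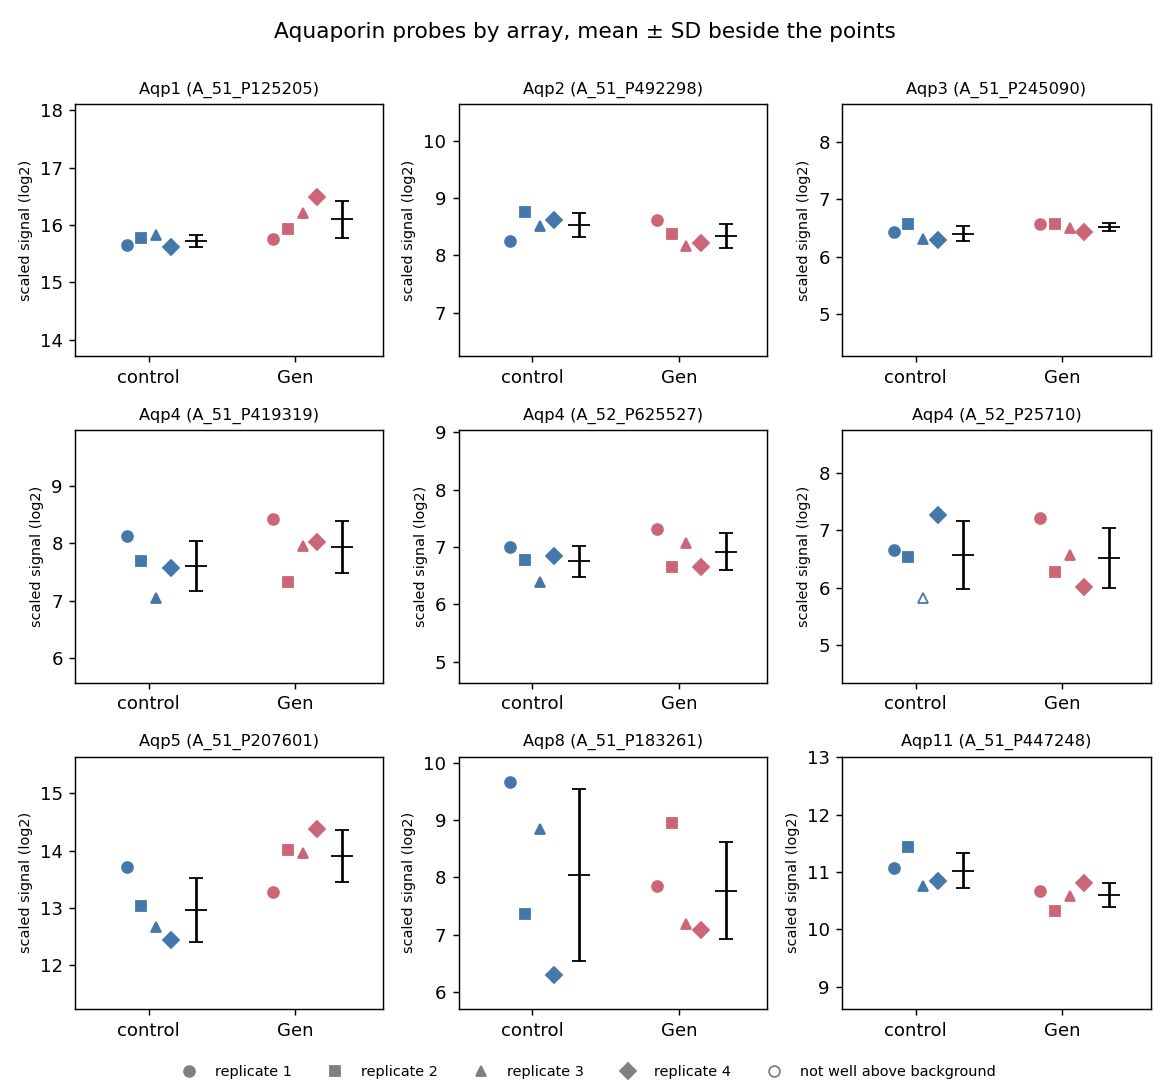
Scaled log2 signal (vertical axis, spanning the same log2 width in each panel) of the 9 aquaporin probes detected on at least 7 arrays, for control and Gen arrays, with 1 point per array and the mean ± SD (n = 4) beside them. The groups overlapped in every panel, and the spread was widest for Aqp8, from 78.3 to 812 among the controls.

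Aqp5, the water channel of the secretory surface of salivary, lacrimal and airway glands, had the largest difference of the detected members. Its signal on control arrays 1–4 was 13481, 8423, 6539 and 5560, and on Gen arrays 1–4 it was 9958, 16578, 15893 and 21288. Replicates 2, 3 and 4 of the Gen group stood above every control, whereas Gen replicate 1 lay below control replicate 1. The mean log2 signal corresponded to a signal of 8016 for controls and 15370 for Gen, 1.92-fold higher. The log2 difference was 0.94 (SE 0.32), with a 95% interval of 0.19 to 1.68. The difference did not pass the adjusted test (limma adjusted p = 0.0945, and 0.167 in the fit without dim probes), and the exact permutation test over the 70 divisions of 8 arrays gave a 2-sided p of 0.0571. The smallest p that 4 arrays against 4 allow is 0.0286. In whole oviducts, a higher level per cell and a larger number of cells with the transcript cannot be told apart. When 1 array was left out, the log2 difference of Aqp5 was between 0.76 and 1.19 and the limma adjusted p between 0.0590 and 0.204. The 6 markers of the secretory epithelium, all detected on each array, had a median log2 difference of -0.08 and a summed signal of 930900–1056000 for controls and 799500–1156000 for Gen, and their part in the Aqp5 value was not tested.

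Aqp1, the water channel of red blood cells, capillary endothelium and kidney proximal tubule, was bright on all arrays. Controls had signals of 51475, 56283, 58315 and 50168, and the Gen arrays had 55317, 62540, 75502 and 92142. The controls lay close together, within 1.16-fold from lowest to highest, and the Gen arrays ranged over 1.67-fold, with replicates 2, 3 and 4 above all controls and replicate 1 among them. The log2 difference was 0.38 (SE 0.17, 95% interval -0.02 to 0.77) and did not pass (limma adjusted p = 0.197, and 0.252 in the fit without dim probes). An exact permutation test gave p = 0.0857, 2-sided. The 10 endothelial markers, detected on every array, were higher in Gen-treated mice in 10 of 10 cases, with a median log2 difference of 0.18. None passed the test, against 4.37% of all probes so detected, whose median was -0.01. Their summed signals were 67660–75870 for controls and 70310–92720 for Gen. Of 4 lymphatic endothelial markers, all detected, 2 were higher and 2 lower. Among these 1 passed, lower in Gen-treated mice, where 2.44% of all probes so detected were called lower. Of 5 red blood cell markers, the 4 that were detected on all arrays were higher, with a median log2 difference of 0.63 and none past the test, and Epb4.2 was not well above background on any array. The summed signal of the red blood cell list was 104300–163900 in controls and 124200–262900 in Gen-treated mice. The part of these cells in the Aqp1 value was not tested.

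Aqp11, which resides in the endoplasmic reticulum and whose loss in mice leads to cystic kidneys, had signals of 2153, 2780, 1720 and 1834 in controls. In Gen-treated mice the signals were 1638, 1283, 1533 and 1790. Gen replicates 1, 2 and 3 stood below all controls, and Gen replicate 4 lay between control replicates 3 and 4. The log2 difference was -0.43 (SE 0.18, 95% interval -0.85 to -0.01), with a limma adjusted p of 0.171 and of 0.231 in the fit without dim probes. By the exact permutation test the 2-sided p was 0.0571.

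Aqp8, known from liver, pancreas and intestine, was the most variable member among mice of the same group. Its signal was 812, 165, 459 and 78.3 in controls, and 231, 492, 146 and 136 in Gen-treated mice. The highest control was 10.4-fold above the lowest, and the Gen arrays ranged over 3.61-fold inside the limits of the controls. The log2 difference of -0.27 (SE 0.75) had a 95% interval from -2.0 to 1.46, so that neither a large rise nor a large fall was resolved with 4 mice per group. It turned to 0.27 without control replicate 1 (limma adjusted p = 0.850 with all arrays and 0.828 without that replicate).

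Aqp2, the channel that vasopressin brings to the apical membrane of the kidney collecting duct, gave a dim but detected signal. It was 306, 430, 363 and 395 in controls and 394, 333, 287 and 296 in Gen-treated mice. Gen replicates 3 and 4 stood below every control and Gen replicate 1 lay at the level of control replicate 4. The log2 difference was -0.19 (SE 0.16, 95% interval -0.55 to 0.17, limma adjusted p = 0.481), and without scaling between arrays it was 0.05, where the median of all detected probes stood at 0.24.

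For Aqp4, the main water channel of astrocytes, which also occurs in several epithelia, 3 probes could be compared. The brightest (A_51_P419319) had signals of 278, 207, 133 and 189 for controls and 344, 160, 246 and 261 for Gen, a log2 difference of 0.32 (SE 0.29, 95% interval -0.34 to 0.99, limma adjusted p = 0.516). The groups overlapped, and Gen replicate 1 alone stood above all controls. The probe A_52_P625527 had signals of 83.4–128 for controls and 100–158 for Gen, with a log2 difference of 0.17 (SE 0.20, limma adjusted p = 0.627). The third (A_52_P25710) was not well above background on control replicate 3 and had a difference of -0.05 (SE 0.35, limma adjusted p = 0.940). The sign of the third thus differed from that of the other two, and no Aqp4 probe resolved a difference.

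Aqp3, an aquaglyceroporin of the basolateral membrane of many epithelia and of skin, was close to the detection limit but steady. The signal was 86.2, 95.3, 79.1 and 78.3 in controls and 94.6, 95.1, 90.9 and 86.3 in Gen-treated mice. All Gen arrays lay within the range of the controls. The log2 difference of 0.12 (SE 0.11, limma adjusted p = 0.534) had the narrowest 95% interval of the 9 probes, -0.14 to 0.37. After normexp background correction it was -0.01.

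**Figure D2:**
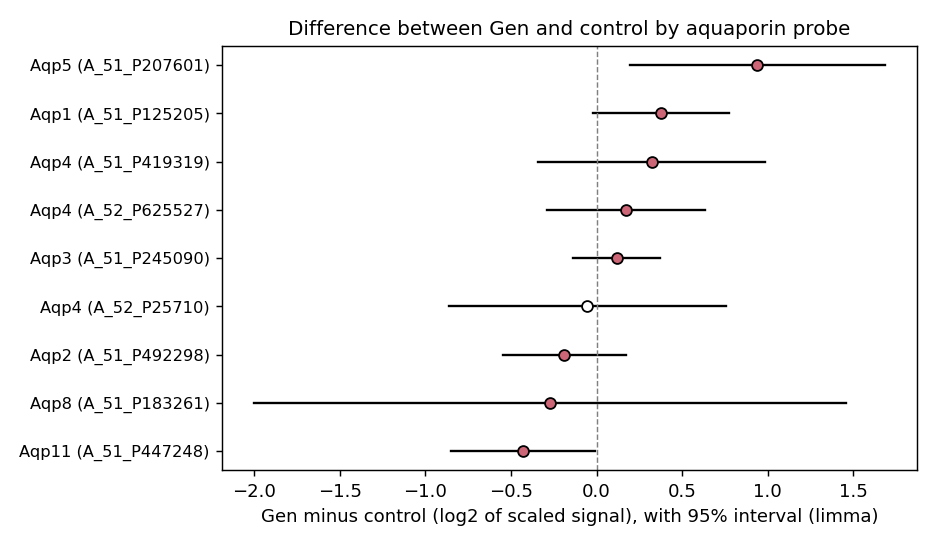
Difference in scaled log2 signal, Gen minus control, for the 9 aquaporin probes detected on at least 7 arrays (point), with its 95% interval from limma (line, n = 4 arrays per group). The open point is the Aqp4 probe detected on 7 arrays; the intervals of Aqp5 (0.19 to 1.68) and Aqp11 (-0.85 to -0.01) leave out 0 before adjustment over all probes, and the other 7 include it.

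Aqp7, which lets glycerol leave fat cells, had neither probe above background apart from 1 array. The probe A_52_P403405 reached that level on Gen replicate 2, at 24.9, where the lowest signal called on that array was 14.5. Its other 7 values were between 5.69 and 23.0, and with 1 array above background no difference is given. The probe A_51_P378063, which carries the other base of the mismatch, was not above background on any array. Of the 6 adipocyte markers, 5 were detected on all 8 arrays, with summed signals of 31120–84010 for controls and 18280–73860 for Gen.

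Aqp9, the channel by which liver cells take up glycerol, was well above background in 1 of 24 readings (3 probes on 8 arrays), again on Gen replicate 2, with a signal of 18.2 from A_52_P136092. The probe A_52_P80440 had signals of 10.1, 8.44, 16.0 and 7.16 in controls and 4.02, 3.44, 4.16 and 5.57 in Gen-treated mice. Every Gen array stood below every control, and this was the 1 aquaporin probe of 14 with an adjusted p under 0.05 (limma adjusted p = 0.0236), against 16.2% of all 41173 probes tested (2.17% higher and 14% lower). It was not well above background on any array, so no fold is given, and of the 7855 probes on the array that were never well above background 63.6% were called lower in Gen-treated mice in the same fit. The probe A_51_P168133, likewise not above background on any array, missed the threshold (limma adjusted p = 0.0723), and for A_52_P136092 no difference is given. In the fit without dim probes, which left out all 5 probes of Aqp7 and Aqp9, 1.11% of probes were called and no aquaporin was among them.

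**Figure D3:**
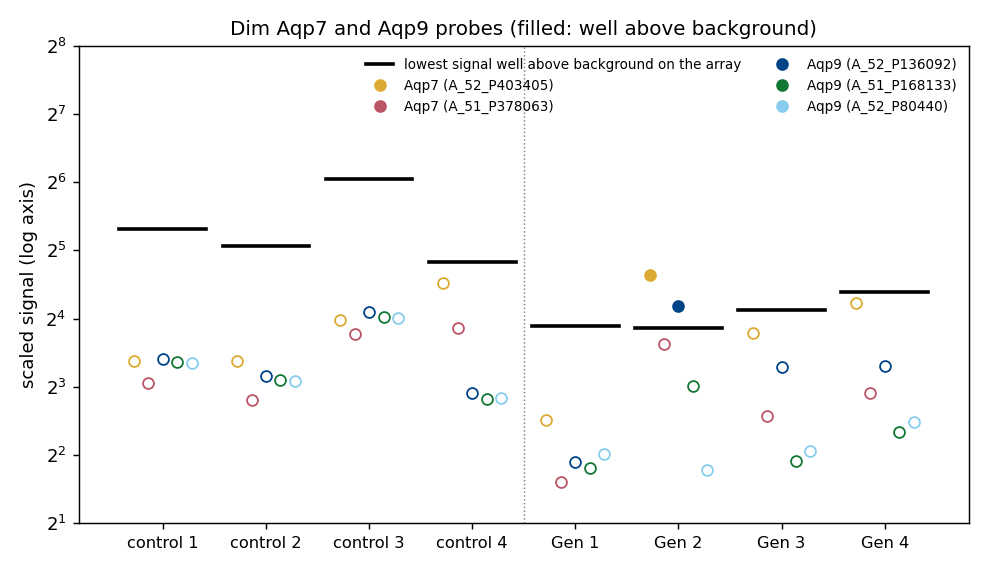
Scaled signal (vertical log axis) of the 5 Aqp7 and Aqp9 probes on each of the 8 arrays, with the lowest signal that the scanner software called well above background on that array as a black line. Filled points were well above background, and both of them were on Gen replicate 2 (24.9 for Aqp7 and 18.2 for Aqp9); the lines lie at 28.5–65.9 on control arrays and at 14.5–20.9 on Gen arrays.

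Other members of the family were on the array as well. Aqp6, a channel of intracellular vesicles in kidney, was well above background on control replicates 2 (41.9) and 4 (45.8), not on control replicates 1 (10.4) and 3 (26.2), and on no Gen array, where its signals were at most 11.8. The groups overlapped, and the limma adjusted p of Aqp6 was 0.0365. No fold is given for a probe that 2 of 8 arrays measured. Aqp12 reached detection on Gen replicates 1 (60.6) and 2 (44) and on no control array, and its difference did not pass (limma adjusted p = 0.135). Mip, the aquaporin of the lens, was not above background on any array, so no difference is given. It was called lower in Gen-treated mice (limma adjusted p = 0.025), as were 63.6% of the probes never well above background. A further probe named by the accession of a cDNA, and described as an Aqp9 homologue, lies at the position of A_52_P136092 and was also at background throughout.

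Several aquaporin genes are neighbours in the genome. On chromosome 15 the probes of Aqp2, Aqp5 and Aqp6 lie in that order, with 11.6 kb between the first pair and 10.2 kb between the second. Along this stretch the log2 difference was -0.19 for Aqp2 and 0.94 for Aqp5, and Aqp6 was above background on 2 arrays. On chromosome 4 the probes of Aqp7 and Aqp3 are 58.7 kb apart. The Aqp7 probes were well above background on 1 array or on 0, and the Aqp3 probe on all arrays.

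Genes that act beside aquaporins were read from the same fit. Of 16 genes of salt and fluid transport, all of them detected on every array, 1 rose and 2 fell, where 4.37% of all probes with this detection were called, and their median log2 difference was -0.12. Scnn1a, the alpha subunit of the epithelial sodium channel, had a log2 difference of 0.57 (SE 0.14, limma adjusted p = 0.0283). Atp1b1, the beta-1 subunit of the sodium pump, fell by 0.70 (SE 0.17, limma adjusted p = 0.0255), and Fxyd4, a regulator of that pump, fell by 0.85 (SE 0.15, limma adjusted p = 0.0236). In the fit without dim probes Fxyd4 kept an adjusted p under 0.05 (0.0396), whereas Scnn1a (0.0796) and Atp1b1 (0.0751) did not. The chloride channel Cftr had a log2 difference of 0.14 (limma adjusted p = 0.738).

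Of 12 partners and regulators of aquaporins, 11 were detected on all arrays and none passed, against 4.37% of all probes so detected. Their median log2 difference was -0.04. Avpr2, the kidney vasopressin receptor that acts on Aqp2, was above background on 1 control and 2 Gen arrays. Of 8 genes of glycerol handling, all detected, 6 were higher and 2 lower. Mgll, the lipase that frees glycerol from monoglycerides, was the single one that passed, where 2.44% of all probes so detected were called lower. Its log2 difference was -0.72 (SE 0.15, limma adjusted p = 0.0236, and 0.0545 in the fit without dim probes). Of 7 steroid hormone receptors, 6 were detected on all arrays with a median of -0.33. Among these the progesterone receptor gene Pgr alone passed (-0.64, limma adjusted p = 0.0460, and 0.109 without dim probes), against the same 2.44%. The seventh, Esr2, encoding estrogen receptor beta, was above background on no control and on 4 Gen arrays. It was at least 3.16-fold higher, the mean of the Gen arrays being set against the lowest signal well above background on each control array. Its limma adjusted p (0.0286, and 0.0885 without dim probes) rests on control values that were not above background. The probe entered the second fit through the Gen group alone, so neither p is taken as support. In the ovarian cell list, Lhcgr and Amh were likewise above background on 0 control and 4 Gen arrays. Cyp19a1 was above background on 0 and 3 arrays, and Fshr on 1 and 4. The part of ovarian cells in the Esr2 value was not tested.

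The genes whose scaled log2 signals over the 8 arrays were most like those of Aqp5, Aqp11 and Aqp1 were found by the root mean square difference of mean-centred values among 14258 genes, as a description without a test. Nearest to Aqp5 (own SD 0.64 on the log2 scale) were Adh7 (0.18), Svopl (0.18) and Shisa2 (0.20). Nearest to Aqp11 (own SD 0.31) were Krt1 (0.11), Slc9a2 (0.11) and Agfg2 (0.12). Nearest to Aqp1 (own SD 0.28) were Etl4, Ccpg1 and Nckap1, at 0.07 each. After quantile normalization the same 3 genes were nearest to Aqp5 and to Aqp11, and for Aqp1 they were Dgkb, Etl4 and Ccpg1.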

How the data were processed

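Total RNA from the oviducts of 8 mice was labeled with Cy3 and hybridized to Agilent whole mouse genome arrays. The authors deposited scanner files of Agilent Feature Extraction 9.5 (per the submitters' processing notes), whose processed signal is a linear intensity after background adjustment and detrending within the array. The deposited series table held the same intensity in all 45018 spots. The later steps in Rosetta Resolver that the methods give were not applied here.

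Groups and replicate numbers came from the sample labels. The 1639 control spots and outlier spots were left out, spots of a probe were averaged as log2 values, and each array was scaled at its 75th percentile. R 4.3.3 with limma 3.58.1 (lmFit, eBayes) and data.table version 1.17.8 was used, and matplotlib 3.10.9 for plots. A probe was called at an adjusted p under 0.05 over 41173 probes, since 1 of 41174 had no value left in 1 group. Where a gene had several probes all are given, and counts of genes and lists took its brightest probe by mean log2 signal. Probes were named by RefSeq accession (22951) or symbol (9768) from tables of GRCm38.p6, and 8455 kept the name in the files. The text names all 9 members and the 3 genes most like each of 3 members. It also names genes of the pathway lists that passed and were detected on all arrays (up to 3 a list). The other family members, Esr2, Avpr2, Cftr and the ovarian markers named were chosen after their values were seen. One marker gene is not reported here and was left out of its list. The members and lists were chosen with earlier results of these data known.

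On data simulated from 28915 probes, 55% of 100 changes of 1 on the log2 scale and 88% of 100 changes of 2 were recovered, 0 in the wrong direction, with 8 unchanged probes called. The simulation used only probes of the fit without dim probes, with independent noise and no slide effect. It therefore does not describe recovery or false calls among dim probes in the main fit. Alternatives were quantile normalization, no scaling, a floor of 65.9, normexp (offset 50), a filter on dim probes, the methods' t-test, outlier spots retained, a robust fit with an intensity trend, a block for the replicate number, averaging of a gene's probes, and leaving out each array. Intensities give no counting error, and the number of arrays limits the precision. No annotation of mm7 was used, so no exon or untranslated region is named, and protein sequences were not used here.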

Additional observations from a re-analysis of the deposited data

How the results depend on the processing

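No detected aquaporin passed an adjusted p of 0.05 under any of 17 alternatives or with the mean of a gene's probes (limma, or the methods' t-test), and the unadjusted p of the detected probes was under 0.05 for 2 as reported, for 3 with quantile normalization, the filter on dim probes or the intensity trend, for 1 or 2 under the other alternatives and for 0 with the replicate block, and 1 was under 0.01 without scaling, without control replicate 1 or without Gen replicate 1. Over the 9 probes detected on at least 7 arrays, 146 differences kept their direction and 7 did not. These were Aqp2 (0.052) and Aqp4 A_52_P25710 (0.19) without scaling, Aqp3 (-0.0093) after normexp, Aqp8 (0.27) without control replicate 1, and Aqp4 A_52_P25710 without control replicate 4 (0.18), Gen replicate 2 (0.02) or Gen replicate 4 (0.12). With an array left out the range was -0.86 to 0.27 for Aqp8 and -0.31 to 0.18 for Aqp4 A_52_P25710. The 1 called aquaporin probe, Aqp9 A_52_P80440, became 0 with quantile normalization, no scaling, normexp, the filter on dim probes, the floor, the methods' t-test and the replicate block, it stayed 1 with outlier spots kept and with the intensity trend, and the count was 0 to 1 with an array left out (0 without control replicate 1 or Gen replicate 1, 2 or 3). Of all probes, 6674 were called. The count was 178 with quantile normalization, 640 without scaling, 496 after normexp, 321 with the filter, 20 with the floor, and 0 by the methods' t-test (6098 at an unadjusted p under 0.01 and 11364 under 0.05). With an array left out it was 1 to 7130, with 97 without control replicate 1 and 3, 2 and 1 without Gen replicates 1, 2 and 3. Of probes detected on all arrays the 1089 calls became 90, 231, 447, 249, 14 and 0 in the same order, and 0 to 937 with an array left out. With outlier spots kept, 6646 of all probes and 1087 of those detected on all arrays were called. The robust fit with an intensity trend called 6993 and 1620. The 5 calls in the related lists among genes detected on all arrays became 1 with the filter. The causes were not tested. The replicate numbers gave no sign of a pairing (correlations of deviations -0.079, 0.105, -0.021 and -0.183, and 0 of 4 best with their own number). With 4 arrays per group this cannot exclude one. The paper set Gen-treated mice against control littermates, and the sample labels name no litter. With the replicate block 1 probe was called over all probes and 0 of those detected on all arrays. Probes near background have no measured level, which limits Aqp7 and Aqp9.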
